A study of Mus musculus with 6 samples.

Results

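Klf2, Klf3 and Klf6 encode Krüppel-like transcription factors, and S1pr1, S1pr2, S1pr4 and S1pr5 encode receptors for sphingosine 1-phosphate (S1P). These 7 genes were taken by symbol from the 55487 genes of the deposited count table, and each symbol matched 1 row. RNA sequencing measured them in live lymphocytes sorted from small-intestinal epithelium, and the mice were C57BL/6J with a WT genotype. The sort took cells positive for CD3ε, which is part of the T cell receptor complex, and for CD45, the common leukocyte antigen. They were split by B220, a form of CD45, into a B220− group (called T cells in the labels, 3 libraries) and a B220+ group (called X cells, 3 libraries). The labels give no treatment, age or sex. Whether each library had its own mouse is not stated either, so every p-value rests on the spread among these libraries, which may be technical.

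S1P is abundant in blood and lymph and scarce inside tissues, and lymphocytes leave tissues by following this gradient through S1PR1. KLF2 is a transcription factor of quiescent T cells that switches on S1pr1. CD69, a surface protein of recently activated and of tissue-resident lymphocytes, binds S1PR1 and removes it from the surface. Intraepithelial lymphocytes are long-lived residents of the gut lining, and low Klf2 and S1pr1 is a known trait of resident T cells.

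The gene totals of the 6 libraries lay between 11320363 and 39591312 counts, with B220+ replicate 2 the deepest. Cd3e, a marker of the sort, was high in every library, at 1199 to 1399.5 CPM (counts scaled to a common library size). Itgae, which encodes the αE integrin chain and is not a sort marker in the labels, was at 2444 to 2774 CPM. Of 10 B cell markers, 9 had a mean under 1 CPM, and Ms4a1 was at most 0.108 CPM. The 10 endothelial markers summed to 28.6 to 30.1 CPM in the B220− and 30.2 to 36.3 CPM in the B220+ libraries. Nearly all of this was Pecam1 (28.8 ± 0.577 and 33.3 ± 3.04 CPM, edgeR adjusted p = 0.177), the other 9 had a mean under 1 CPM, and Kdr, Cldn5, Tek and Emcn had no count in any library. The 8 NK cell markers summed to 56.2 to 65.2 CPM in the B220− and 77.1 to 80.2 CPM in the B220+ libraries, with Ncr1 at most 0.629 CPM. Of the 5 tested by edgeR, Klrb1c and Klri2 were called higher and Eomes lower in B220+ cells (60.0%, against 11.1% of all genes tested). The call of Klri2 (adjusted p = 0.0314) was lost without B220− replicate 1 or 3 and without B220+ replicate 1, 2 or 3 (adjusted p up to 0.149, without B220+ replicate 2). The 10 epithelial markers summed to 292 to 357 and 324 to 365 CPM, and the 10 myeloid markers to 20.4 to 23.5 and 16.8 to 21.05 CPM. The B220− libraries held more transcripts of conventional T cell markers, a list of 10 genes that includes Cd4, Cd8b1, Cd5 and Cd28. Its summed level was 1226 to 1924 CPM in the B220− and 311 to 394 CPM in the B220+ libraries. By edgeR 9 of the 10 were called lower in B220+ cells (adjusted p as defined below), against 5.56% of all genes tested. Cd5 was not called without B220+ replicate 2 (edgeR adjusted p = 0.0505). In bulk RNA, fewer cells of a type and less RNA per cell cannot be told apart, and the part of these marker differences in the results below was not tested.

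The regions just upstream of 3 of the members called lower below are shown because KLF2 and KLF3 bind the CACCC box. The sequences are from RefSeq, build GRCm38.p6, which has the coordinates of the authors' mm10. They are printed 5′ to 3′ on the strand of the gene and stop before the first base of the gene as deposited, so their lengths differ. Capitals mark matches to CACCC on either strand (GGGTG on the strand shown) or, in Klf2, to the consensus of MEF2, a factor through which the kinase ERK5 induces Klf2.
Klf2 (chr8:72318812-72319032, plus strand): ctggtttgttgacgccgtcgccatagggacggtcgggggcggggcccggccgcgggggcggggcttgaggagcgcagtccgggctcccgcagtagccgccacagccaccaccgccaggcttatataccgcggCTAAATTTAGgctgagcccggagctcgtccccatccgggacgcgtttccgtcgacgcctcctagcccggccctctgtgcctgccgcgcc
Klf3 (chr5:64803271-64803387, plus strand): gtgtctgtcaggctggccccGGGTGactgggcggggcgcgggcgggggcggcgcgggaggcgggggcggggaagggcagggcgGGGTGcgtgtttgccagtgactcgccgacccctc
S1pr4 (chr10:81500138-81500387, minus strand): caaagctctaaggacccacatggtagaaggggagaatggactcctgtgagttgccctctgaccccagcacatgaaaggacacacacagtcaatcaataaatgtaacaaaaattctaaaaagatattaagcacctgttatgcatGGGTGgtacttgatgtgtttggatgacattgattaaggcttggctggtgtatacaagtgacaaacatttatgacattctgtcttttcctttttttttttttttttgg
The Klf2 stretch held 1 MEF2 match, which begins 89 bases before the gene's start, and no CACCC. Over the whole RefSeq windows, from 250 bases before to 50 after the start, CACCC was found 5 times for Klf3, 2 times for S1pr5, 1 time each for Klf2, S1pr2 and S1pr4 and 0 times for Klf6. Of 32851 such windows of all genes, 57.5% held CACCC on either strand, against 0.557% with the MEF2 consensus. The forkhead motif GTAAACA, searched on both strands, was in none of these 6 members' windows and in 3.65% of all windows. No window was listed for S1pr1. These matches are letters only and were not measured as binding sites.

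Of the 7 members, 6 had enough counts to be tested, and 5 of them fell in B220+ cells: S1pr1, Klf3, Klf2, S1pr4 and Klf6, in order of fold change. S1pr2 did not pass, and S1pr5 was close to absent. A gene was called when the adjusted p of edgeR's quasi-likelihood test, corrected by Benjamini-Hochberg over 14722 genes, was under 0.05. Of all genes tested, 11.1% were called, 5.56% lower and 5.58% higher. Members and lists were chosen with earlier results of these data known, so their shares called are not independent of the data. The median log2 fold change (B220+ minus B220−) was −1.18 over the 6 tested members and −0.0074 over all genes. In 5 of the 6 members every B220+ library lay below every B220− library, which held for 13.9% of all genes. A fit with the replicate number as a block called the same number of members, 5, all lower, where 17.5% of all genes were called and 8.6% were called lower. The plot of the members by library shows these values.

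**Figure D1:**
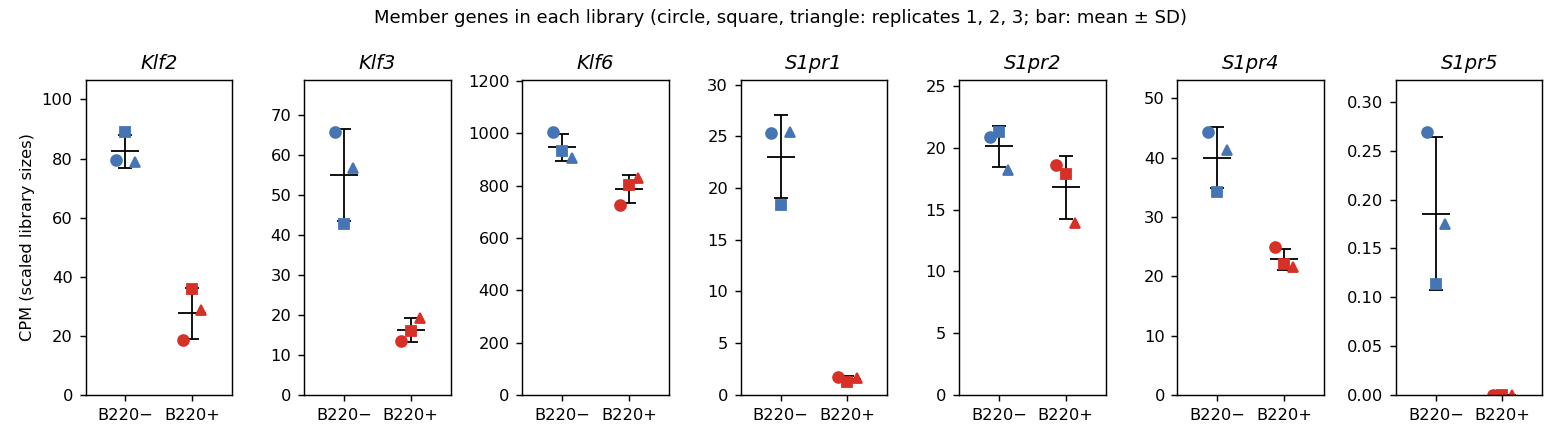
Normalised counts (CPM, linear axes from 0, a separate axis for each gene) of the 7 members in the 3 B220− and 3 B220+ libraries, each point a library and the bar the mean ± SD. The groups are apart for Klf2, Klf3, Klf6, S1pr1 and S1pr4 and overlap for S1pr2, and S1pr5 has points above 0 in the B220− libraries alone.

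Klf2 (ENSMUSG00000055148, mm10 chromosome 8, 72319033 to 72321656, plus strand) stood at 79.5, 88.9 and 78.9 CPM in B220− replicates 1, 2 and 3 and at 18.6, 35.8 and 28.6 CPM in B220+ replicates 1, 2 and 3. The B220− libraries lay close together, and the B220+ libraries spread widely, replicate 1 being lowest. Its group means were 82.4 ± 5.62 and 27.7 ± 8.60 CPM (SD, n = 3 per group), so 33.6% of the B220− level was left. The log2 fold change was −1.54 (SE 0.23, edgeR adjusted p = 0.0122), a 2.91-fold decrease. The call depended on single libraries: the edgeR adjusted p was 0.0763 without B220− replicate 1 and 0.0616 without B220+ replicate 3. With 1 library removed the log2 fold change lay between −1.79 and −1.34.

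Klf3 (ENSMUSG00000029178, chromosome 5, 64803388 to 64832901, plus strand) encodes a factor that binds the same CACCC boxes and mostly represses. It stood at 65.8, 42.8 and 56.7 CPM in the B220− and 13.5, 16.1 and 19.4 CPM in the B220+ libraries, replicates 1 to 3 in order. The highest B220+ library had less than any B220− library. Its log2 fold change was −1.75 (SE 0.19), a 3.37-fold decrease (edgeR adjusted p = 9.05e-04). It was also called without each library in turn (edgeR adjusted p at most 0.0150). Gm20033, a gene on the opposite strand that shares 730 bases with Klf3, had 24.5% of the counts of Klf3 and a log2 fold change of −1.55 (edgeR adjusted p = 0.00138). The strand setting of the counting is not given in the sources used here, so reads of this overlap cannot be assigned to a strand. C230096K16Rik shares 1722 bases with Klf3 on the same strand, where no strand setting separates their reads. It had 9.77% of the counts of Klf3 and a log2 fold change of −1.69 (edgeR adjusted p = 0.00113).

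Klf6 (ENSMUSG00000000078, chromosome 13, 5861482 to 5870394, plus strand) is an early response gene of many cell types. It had 1003, 931 and 903 CPM in the B220− and 727, 801 and 829 CPM in the B220+ libraries. The groups did not overlap, but the gap between them, 829 to 903 CPM, was small beside their levels. The log2 fold change was −0.27 (SE 0.077, edgeR adjusted p = 0.0413), a 1.204-fold decrease. Removing 1 library ended the call of Klf6 in 5 of 6 cases: the edgeR adjusted p was 0.121, 0.0678 and 0.0849 without B220− replicates 1, 2 and 3 and 0.165 and 0.0998 without B220+ replicates 1 and 2.

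S1pr1 (ENSMUSG00000045092, chromosome 3, 115710433 to 115715072, minus strand) encodes the receptor that guides lymphocytes out of tissue. It stood at 25.3, 18.4 and 25.4 CPM in the B220− libraries. In the B220+ libraries it had 21, 49 and 23 counts, which were 1.78, 1.23 and 1.62 CPM (95% Poisson intervals, counting error only, 1.10 to 2.72, 0.912 to 1.63 and 1.03 to 2.44). The lowest B220− library had many times more than the highest B220+ library, and the intervals of the B220+ libraries overlapped each other. The log2 fold change was −3.96 (SE 0.20, edgeR adjusted p = 1.92e-07), and 6.71% of the B220− level was left. Without any 1 library the adjusted p was at most 1.22e-05.

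S1pr4 (ENSMUSG00000044199, chromosome 10, 81497747 to 81500132, minus strand) encodes an S1P receptor found mainly on blood cells. Its levels were 44.3, 34.3 and 41.4 CPM in the B220− and 24.9, 22.0 and 21.6 CPM in the B220+ libraries. The groups were apart, and the B220+ libraries lay closer together than the B220− libraries. S1pr4 fell by 0.81 (SE 0.11, edgeR adjusted p = 3.57e-04), or 1.76-fold, and stayed called without each library in turn (adjusted p at most 0.00436).

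S1pr2 (ENSMUSG00000043895, chromosome 9, 20962361 to 20976781, minus strand) encodes a receptor that couples to G12 and G13 and holds lymphocytes in place rather than drawing them to S1P. It had 20.9, 21.3 and 18.2 CPM in the B220− and 18.6, 17.9 and 13.9 CPM in the B220+ libraries. B220+ replicate 1 lay above B220− replicate 3, so the groups overlapped. The log2 fold change was −0.26 (SE 0.13), which did not pass (edgeR adjusted p = 0.254).

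S1pr5 (ENSMUSG00000045087, chromosome 9, 21242912 to 21248443, minus strand), the S1P receptor of NK cells and patrolling monocytes, had 5, 2 and 2 counts in the B220− libraries and 0 in all 3 B220+ libraries. It was removed by the filter on low counts and has no test. Taken over the group, its B220− level was 0.189 CPM, and a count of 0 over the B220+ libraries allows up to 3 counts, or 0.0456 CPM, so the level was at least 4.13-fold lower when the 9 B220− counts are taken as exact. Those 9 counts are themselves uncertain and would allow a smaller fold: they have a 95% Poisson interval of 4.12 to 17.1, and with no filter on low counts the edgeR adjusted p was 0.0797.

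Levels of different genes were compared per kilobase of exonic length. That length is the union of a gene's annotated exons, so a gene expressed as a shorter transcript is placed too low. In B220− cells the order was Klf6 (215 ± 11.7 CPM per kb), Klf2 (44.6 ± 3.04), S1pr4 (16.8 ± 2.15), S1pr1 (7.56 ± 1.32), Klf3 (4.90 ± 1.03), S1pr2 (2.53 ± 0.208) and S1pr5 (0.0742 ± 0.0314), and the libraries of neighbours in this order did not overlap. In B220+ cells S1pr1 stood below S1pr2 and Klf3: the order was Klf6 (179 ± 12.04), Klf2 (14.98 ± 4.65), S1pr4 (9.57 ± 0.755), S1pr2 (2.11 ± 0.320), Klf3 (1.45 ± 0.262), S1pr1 (0.507 ± 0.0926) and S1pr5 (listed at 0). There the libraries of Klf2 and S1pr4 overlapped, and those of other neighbours did not.

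S1pr3, the remaining S1P receptor gene, was among the other pathway genes and moved the other way. It had 18.3, 31.8 and 25.8 CPM in the B220− and 45.7, 48.7 and 43.4 CPM in the B220+ libraries. All B220+ libraries were above all B220− libraries. S1pr3 rose 1.82-fold (log2 fold change 0.86, SE 0.18, edgeR adjusted p = 0.0215). Its call was lost without B220− replicate 3 (adjusted p = 0.0928) and without B220+ replicates 1, 2 or 3 (0.0744, 0.0933 and 0.0622).

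The make-up of S1P receptor transcripts is shown in the stacked bars. Summed over the 5 receptors, the level was 32.6 ± 2.03 CPM per kb in B220− and 22.5 ± 1.30 in B220+ cells. S1pr1 made up 19.96% to 24.7% of that sum in the B220− libraries and 1.78% to 2.53% in the B220+ libraries. S1pr3 made up 12.2% to 23.6% and 43.4% to 47.9%. S1pr4 was the most abundant receptor in each B220− library (47.5% to 55.1%) and had 40.5% to 44.2% in the B220+ libraries. In B220+ replicate 1 S1pr4 exceeded S1pr3, and in replicates 2 and 3 S1pr3 exceeded S1pr4. These shares describe transcripts over all cells of a library, depend on the same exonic lengths and were not tested.

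**Figure D2:**
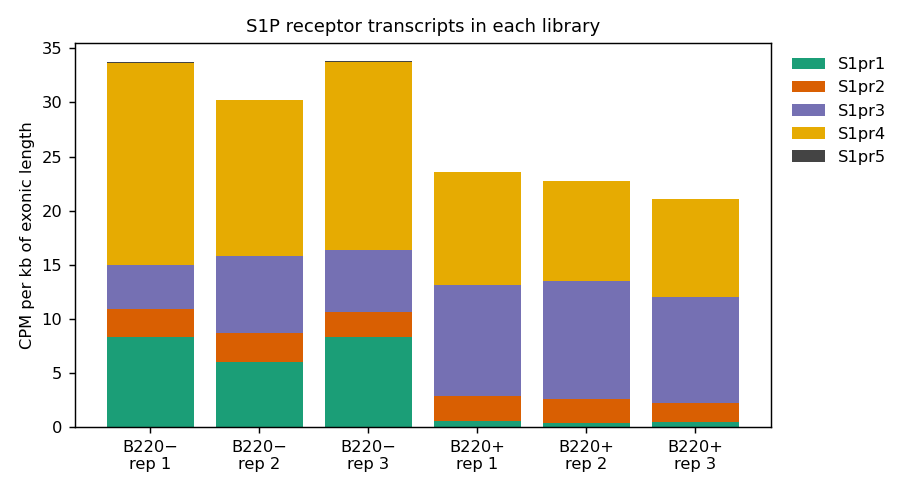
Stacked levels of the 5 S1P receptor transcripts in each library (CPM per kb of exonic length, linear axis from 0), one bar for each of the 6 libraries. The S1pr1 layer is thin in all 3 B220+ libraries and the S1pr3 layer is wider there, while S1pr5 is too small to see in most bars.

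Around these receptors, 22 genes of S1P receptor signalling and retention were tested, of which 3 were called higher (S1pr3, Arrb1 and Gna12) and 1 lower (Cd69). The share called was 18.2%, against 11.1% of all genes. The median log2 fold change of the 22 was −0.055. Cd69 fell from 500.4 ± 28.1 to 362 ± 40.1 CPM (log2 fold change −0.47, edgeR adjusted p = 0.00325). The transcript of this antagonist of S1PR1 was thus lower in the same libraries in which S1pr1 was lower. Arrb1, a β-arrestin that ends receptor signalling, rose 1.39-fold to 113 ± 4.73 CPM (log2 fold change 0.48, edgeR adjusted p = 0.004315). Gna12, the G12 α subunit, rose 1.56-fold to 64.8 ± 4.47 CPM (edgeR adjusted p = 1.71e-04), with the limit that Amz1, which overlaps it on the opposite strand, had 78.1% of its counts. The genes of this list with the highest CPM among those not called were Arhgef1, the RhoA exchange factor downstream of G12 and G13 (1356 ± 118 and 1343 ± 73.8 CPM), and Coro1a, an actin regulator needed for T cell egress (1185 ± 155 and 974 ± 51.2 CPM). Coro1a had an edgeR adjusted p of 0.0745, and of 0.00440 with the replicate number as a block.

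No gene of S1P synthesis, transport and breakdown was called by edgeR among 10 tested of 16, and 1 had an unadjusted p under 0.05. With so few tested and 11.1% of all genes called, the absence of a call says little about this list. DESeq2 called 0, and with the replicate block, which called 17.5% of all genes, 1 was called higher. Sphk2, which makes S1P, stood at 82.9 ± 13.0 and 88.8 ± 15.3 CPM, and its values are uncertain because Rpl18 and Dbp overlap it on the opposite strand with 644% and 17.2% of its counts. Sgpp1, an S1P phosphatase, stood at 79.98 ± 5.635 and 81.4 ± 8.41 CPM. Sphk1 was at most 0.0847 CPM, and the exporter Spns2 at most 0.430 CPM.

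The other Krüppel-like factors showed no call either, with 9 of 14 tested, 3 at an unadjusted p under 0.05 and 0 called by DESeq2. Here too the list is short beside the 11.1% of all genes called. Klf13 (239 ± 15.6 and 238 ± 10.2 CPM) and Klf16 (59.3 ± 3.33 and 52.1 ± 4.05 CPM) had the highest CPM. With the replicate block, which called 17.5% of all genes, 2 were called higher and 1 lower. One of them was Klf4, singled out after its values were seen: it had 26.7, 40.6 and 47.2 CPM in the B220− and 29.7, 51.8 and 62.2 CPM in the B220+ libraries, higher in B220+ at each replicate number (edgeR adjusted p = 0.680, and 0.00799 with the block). Among 10 Krüppel-like genes compared per kilobase, Klf2 made up 12.3 ± 0.939% of the sum in B220− and 5.07 ± 1.31% in B220+ cells.

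Of the regulators of Klf2 and Klf3, 16 of 19 were tested, and 1 was called higher and 1 lower. That share, 12.5%, was near the 11.1% of all genes called. With the replicate block, which called 17.5% of all genes, 3 were called higher and 3 lower. Foxo1, a forkhead factor that induces Klf2 in T cells, rose 1.24-fold, from 207 ± 11.4 to 257 ± 10.5 CPM (edgeR adjusted p = 0.00959, but 0.0550 without B220− replicate 3). Gm20402, on the opposite strand of Foxo1, had 20.2% of its counts. Foxp1, a forkhead factor of T cell quiescence, fell 1.23-fold, from 121 ± 5.43 to 98.3 ± 2.35 CPM (edgeR adjusted p = 0.0102). Ctbp1, the corepressor of KLF3 (259 ± 3.22 and 277 ± 9.52 CPM), and Foxo3 (263 ± 11.5 and 258 ± 24.05 CPM) did not pass (edgeR adjusted p = 0.415 and 0.865).

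Homing receptors fell alongside the members. Of 11 tested, 9 were called lower and 0 higher (81.8%, against 11.1% of all genes), with a median log2 fold change of −0.90. Like the others, this list was chosen with earlier results of these data known. Ccr7, the receptor for lymph node entry, had 23.0, 16.9 and 25.1 CPM in the B220− and 0.678, 0.377 and 0.989 CPM in the B220+ libraries, far apart in each case. It fell 36.2-fold (log2 fold change −5.18, SE 0.29, edgeR adjusted p = 2.07e-06). Itgal, the αL chain of the integrin LFA-1, fell 4.13-fold, from 292 ± 50.4 to 70.9 ± 5.96 CPM (edgeR adjusted p = 2.85e-05). Cxcr4, the receptor for CXCL12, fell 2.397-fold. Receptors of gut and tissue homing had smaller folds: Itga4 1.87-fold, Cxcr3 1.77-fold, Ccr9 1.44-fold, Itgb7 1.38-fold and Cxcr6 1.24-fold. The genes Cerkl and Fyco1 overlap Itga4 and Cxcr6 on the opposite strand, with 17.7% and 70.3% of their counts. Itgb2, the β2 integrin chain (456 ± 42.2 and 402 ± 20.5 CPM, edgeR adjusted p = 0.188), was not called. It passed with the replicate block (edgeR adjusted p = 0.0430), where all 11 were called lower, against 8.6% of all genes.

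**Figure D3:**
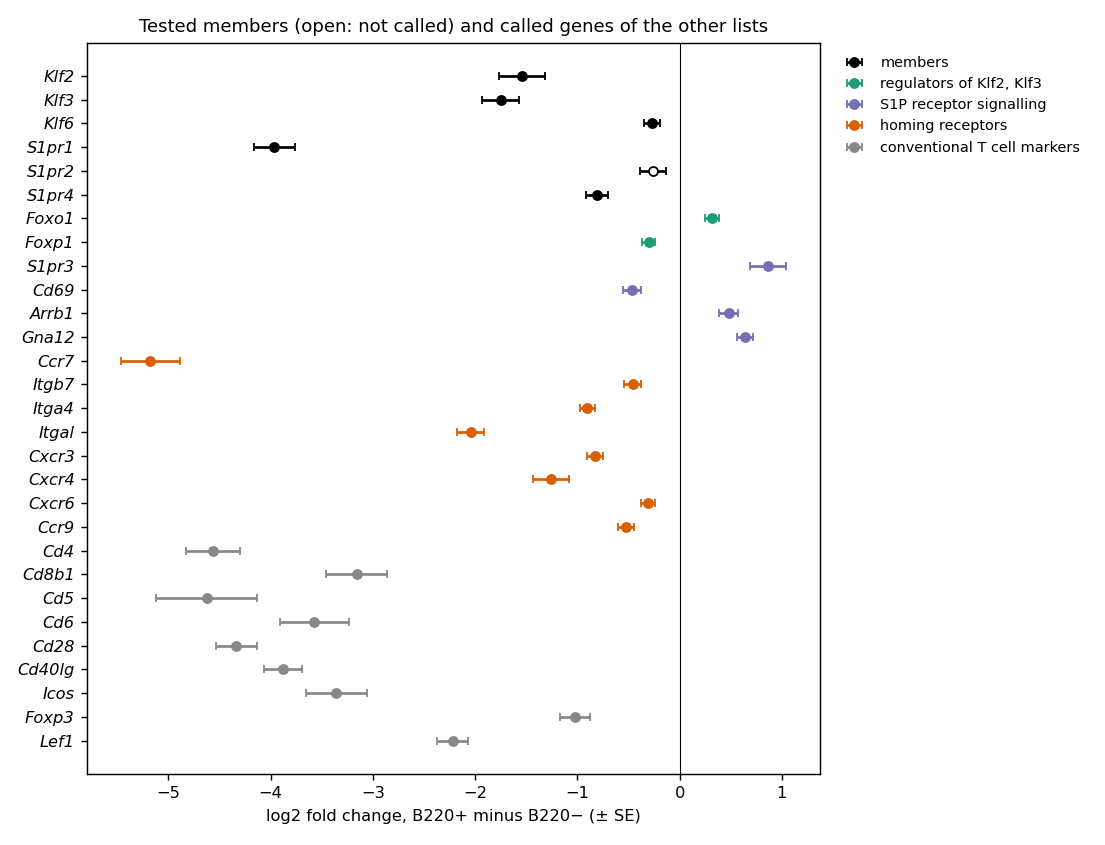
Log2 fold changes (B220+ minus B220−, ± SE of the edgeR fit) of the 6 tested members and of called genes of 4 other lists, coloured by list. Members lie between −3.96 and −0.26, and S1pr3, Arrb1, Gna12 and Foxo1 lie above 0.

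The decreases of the members were set beside those of the conventional T cell markers. The 9 markers called lower kept between 4.30% (Cd5) and 49.5% (Foxp3) of their B220− level, with a median of 8.54%. The 1 marker not called was left out, so this range holds only markers picked for being lower. S1pr1 kept 6.71%, which is within the range of those markers. Klf2 (33.6%) and Klf3 (29.6%) were within it as well, above its median, while S1pr4 (57.1%) and Klf6 (83.1%) kept more than any of the 9. Cd4 was at 177 ± 46.7 and 7.62 ± 0.838 CPM and Cd8b1 at 215 ± 64.5 and 24.5 ± 4.89 CPM.

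Early response genes were examined because Klf2, Klf4 and Klf6 respond quickly to stimulation and to tissue handling. Of 24 such genes tested, 1 was called higher and 4 lower (20.8%, against 11.1% of all genes), with a median log2 fold change of −0.24. With the replicate block, which called 17.5% of all genes and 8.6% lower, 2 were called higher and 12 lower. Those lower without the block were Dusp2 (2.20-fold), a MAP kinase phosphatase, Nfkbia (1.38-fold), an inhibitor of NF-κB, Zfp36 (1.32-fold), an mRNA decay factor, and Dusp1 (1.205-fold), a phosphatase of the same family that Ergic1 overlaps on the opposite strand with 11.9% of its counts. Fosl2, of the AP-1 family, rose 1.58-fold. Those with the highest CPM, Hspa1b, Hspa8 and Junb, did not pass (edgeR adjusted p = 0.851, 0.396 and 0.379).

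Of these calls, that of Zfp36 (edgeR adjusted p = 0.0402) was lost on removing 1 library in 5 of 6 cases (0.0629, 0.0954 and 0.0994 without B220− replicates 1, 2 and 3, and 0.0816 and 0.121 without B220+ replicates 1 and 3). The call of Dusp1 was lost in 3 (0.0627 without B220− replicate 2, and 0.0873 and 0.0669 without B220+ replicates 1 and 2). That of Fosl2 was lost in 2 (0.0583 and 0.0542 without B220+ replicates 2 and 3). Dusp2 and Nfkbia were called in all 6.

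The libraries within a group differed in these genes too. B220+ replicate 1, the lowest for Klf2, was 0.52 below its group mean for Klf2, 0.11 below for Klf6 and 0.62 below for Klf4 on the log2 scale, and 0.26 below for the median early response gene. B220+ replicate 2, the highest for Klf2, was 0.42 above its group mean for Klf2 and 0.19 above for the median early response gene. Klf4 and Klf6 were instead highest in B220+ replicate 3, at 0.44 and 0.080 above their group means. In B220− cells the early response median was −0.16, 0.17 and −0.029 in replicates 1, 2 and 3, and Klf2 was at −0.051, 0.11 and −0.060. Klf4 was at −0.47, 0.13 and 0.35 there. Klf6 was at 0.086, −0.021 and −0.065, opposite in sign to that median in replicates 1 and 2. The part of early response in the spread of Klf2 was not tested.

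**Figure D4:**
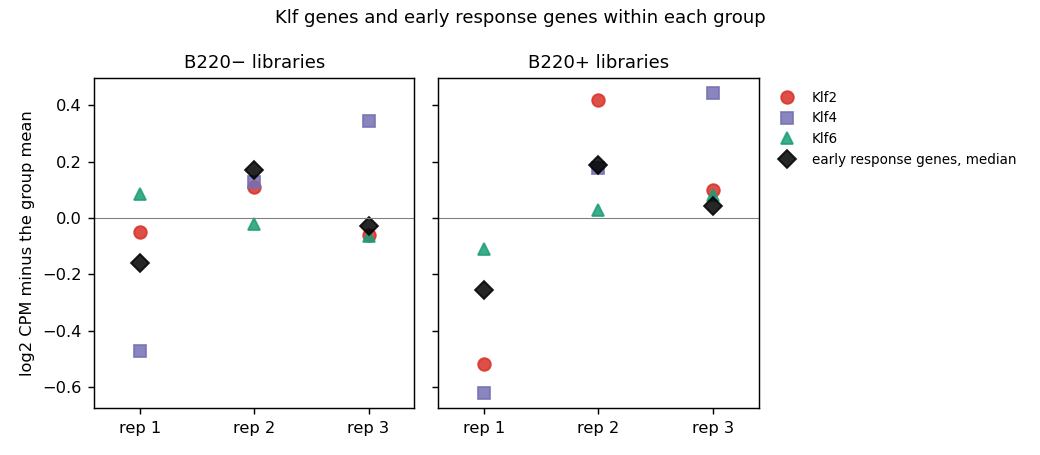
Deviation of Klf2, Klf4, Klf6 and of the median of 24 early response genes from their group mean (log2 CPM, linear axis) in the 3 B220− (left) and 3 B220+ (right) libraries. Klf2 spans −0.52 to 0.42 in B220+ and −0.060 to 0.11 in B220− libraries, and replicate 1 is lowest for the early response median in both groups.

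The genes whose profile over the 6 libraries was most like that of a member were named by the smallest root-mean-square distance between centred log2 CPM profiles. Genes chosen this way share the member's fall, so their folds and adjusted p-values largely follow from the choice and only describe them. For Klf2 they were Snx30 (distance 0.111), Tnf (0.158), Kcnn4 (0.159), Col11a2 (0.177) and Dnajc27 (0.190). Kcnn4 encodes a calcium-activated potassium channel of T cells and fell 2.94-fold, from 47.7 ± 4.01 to 15.9 ± 3.31 CPM (edgeR adjusted p = 4.06e-05). Tnf, the inflammatory cytokine, fell 3.01-fold (edgeR adjusted p = 0.0474), a call lost without B220− replicates 1, 2 or 3 (0.129, 0.119 and 0.126) and without B220+ replicate 3 (0.166). With all 6 libraries the call of Tnf was also lost under library totals alone (edgeR adjusted p = 0.0510) and with no filter on low counts (0.123). Dnajc27 fell 2.55-fold (edgeR adjusted p = 0.0215, but 0.0782 without B220− replicate 3 and 0.0669 and 0.0716 without B220+ replicates 1 and 3).

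For S1pr1 the nearest profiles were those of Ubash3a (0.178), Ankrd6 (0.205), Cd6 (0.218), Rbm24 (0.283) and Cd28 (0.305). Cd6 and Cd28 are also in the list of conventional T cell markers. Ubash3a, a phosphatase-family attenuator of T cell receptor signalling, fell 13.7-fold, from 59.4 ± 13.5 to 4.35 ± 0.551 CPM (edgeR adjusted p = 9.01e-06). Rbm24 totalled 79 counts in B220− and 1 in B220+ cells. B220− replicate 2 was the lowest of its group for S1pr1 and for each of these genes. They were chosen for profiles like that of S1pr1, so this shared order and their falls in B220+ cells follow from the choice.

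**Figure D5:**
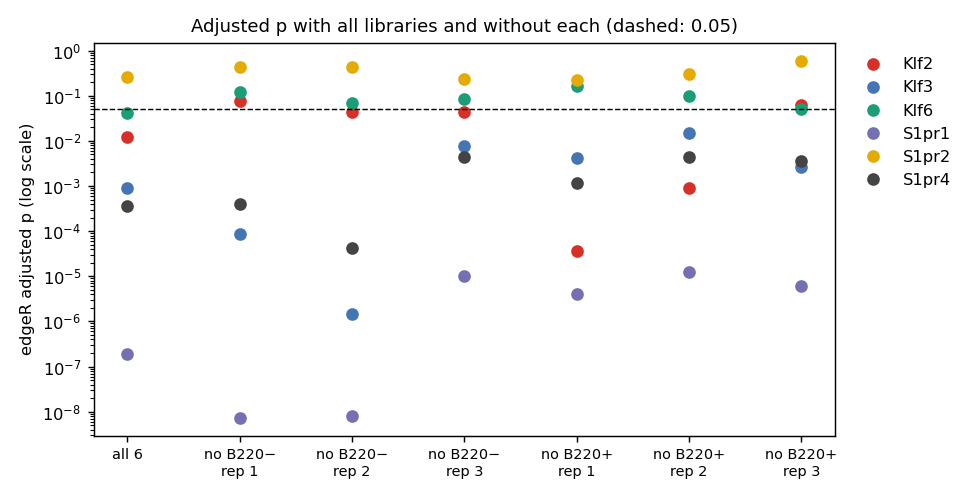
edgeR adjusted p (log axis) of the 6 tested members with all 6 libraries and without each library in turn, with the threshold of 0.05 dashed. S1pr1, Klf3 and S1pr4 stay under the line in every fit, Klf2 crosses it in 2 fits and Klf6 in 5, and S1pr2 is above it throughout.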

How the data were processed

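Total RNA of 6 sorted samples (3 B220−, 3 B220+) was made into directional libraries, per the labels' protocols. The authors deposited raw counts of reads for each gene. Tools listed in the submitters' processing notes are featureCounts 1.6.3, HISAT2 2.1.0, SAMtools 1.9, Trimmomatic 0.38 and FastQC 0.11.7, with build mm10. Options, strand setting and annotation release: not given in the sources used here. All 7 members have the coordinates of GENCODE M21, whose exon unions gave exonic lengths. Library totals were 11320363 to 39591312 counts.

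Tests used edgeR 4.0.16 in R 4.3.3 over all genes: TMM scaling, filterByExpr (minimum count 10, minimum total 15), robust quasi-likelihood fit, group alone, Benjamini-Hochberg adjustment, SE taken from the fold change and its F statistic. Profiles used log2 CPM with a prior count of 2. Alternatives were DESeq2 1.42.0, DESeq2 size factors, library totals, no filter, the replicate block and leaving out each library. No 2 libraries of a group were duplicates (chi-square over degrees of freedom 7.37 to 16.2). Replicate numbers come from the titles. Deviations from group means correlated at 0.295, 0.246 and 0.272 for equal numbers and at −0.203 to −0.0675 for others, so the numbers were taken to pair libraries, which the labels do not state. This pairing was read from the same data that the block then fits. Deviations cancel within a group, so the negative correlations largely follow from the positive ones and are not separate evidence. The deposited column names number the libraries differently. With the block, the share of genes called is 17.5%, and its values are given where a call or a count changes.

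The members and lists were chosen with earlier results of these data known. Named were the 7 members, every called gene of the 5 pathway lists with the 2 most abundant not called of each, the called and the 3 most abundant early response genes, and the 5 nearest profiles of Klf2 and of S1pr1. Lists are described by counts and medians only. Some listed genes that the rule would name are not reported here, though they remain in the counts.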

Additional observations from a re-analysis of the deposited data

How the results depend on the processing

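Under DESeq2, DESeq2 size factors, library totals alone, no filter on low counts and the replicate block, the 6 tested members kept their direction and their side of the threshold, and 5 members were called in each. S1pr5 had enough counts for a test only with no filter. Over all genes 1639 were called, 2569 with the replicate block and 970 to 1789 when 1 library was left out (970 without B220+ replicate 2, 1029 without B220− replicate 3). Leaving out 1 library gave 3 to 4 called members (3 without B220− replicate 1), a log2 fold change of −1.79 to −1.34 for Klf2 and of −0.30 to −0.21 for Klf6, and lost calls for these 2 members; the cause was not tested beyond the fewer samples. Of the 68 pathway genes tested 15 were called (22.1%, against 11.1% of all genes), and 26 with the replicate block (17.5% of all genes). Of the 24 early response genes tested 5 were called (20.8%), 14 with the replicate block and 3 to 5 without 1 library. Changes of sign came from leaving out 1 library and concerned genes that were not called: Klf13 (−0.055 to 0.038), Foxo3 (−0.094 to 0.040), Sphk2 (−0.041 to 0.21), Sgpp1 (−0.028 to 0.11), Arhgef1 (−0.082 to 0.023) and Hspa1b (−0.52 to 0.094). S1pr1 in B220+ cells and S1pr5 rest on few counts, which limits their fold changes.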
